A study of Homo sapiens with 20 samples.

Results

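FOXO1 and FOXO3, the receptor INSR, the adaptors IRS1 and IRS2, and PIK3IP1, CCNG2, BCL6 and KLHL24, genes known to be kept low by PI3K signalling or bound by FOXO factors, were followed in SKBr3 breast cancer cells. They were chosen by symbol in the annotation of the array, which gave 9 genes and 14 probes, out of 20046 genes and 47323 probes in all. Detection meant a detection p-value, the array software's test of a probe against its negative controls, under 0.01, and the probes tested were those that both arrays of at least 1 group detected. This left 9 probes of 7 genes, out of 15444 probes and 9592 genes. IRS2 was detected on 0 of the 20 arrays, with intensities of 104 to 162, and INSR on 6, never on both arrays of a group. For IRS2 and INSR no difference between groups could be measured.

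Growth factor receptors recruit PI3K, partly through the IRS adaptors, and PI3K activates the kinase AKT. AKT phosphorylates FOXO1 and FOXO3, forkhead transcription factors, which then leave the nucleus and are held in the cytoplasm by 14-3-3 proteins, away from their target genes. When PI3K is inactive, FOXO factors turn on genes of growth arrest, apoptosis and nutrient sensing, including upstream parts of the insulin pathway itself. In HER2-positive breast cancer cells the HER2/HER3 pair is a strong activator of this route.

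Total RNA was labelled with biotin and read on 20 one-colour Illumina HumanHT-12 v4 arrays, 10 groups of 2. All cells were SKBr3, an ERBB2-amplified human breast cancer line, or its lapatinib-resistant derivative, and all carried for 60 h either an siRNA (siERRα) that targets ERRα, an orphan nuclear receptor, or a control siRNA (siC). In the growth factor experiment, cells deprived of serum received EGF, heregulin (HRG) or vehicle, and the last of these are called starved. The stated dose was 100 µM. The labels give 24 h of treatment, whereas the methods of the study give 3 h for RNA, so that the age of the response is unsettled, and the time without serum is 24 h in one label and 48 h in a second one. In the resistance experiment, lapatinib-resistant cells (LRSKBr3), kept in lapatinib at 2 µM or, by another label, 1 µM, stood against parental SKBr3 cells, labelled DMSO, in medium with serum. Lapatinib inhibits the kinases of EGFR and HER2. The resistant cells are a single derived line with the drug in its medium, so that resistance, the presence of lapatinib and chance features of that line cannot be told apart. The labels do not say whether the 2 arrays of a group stand for separate cultures. The p-values therefore measure only the spread between these samples, and that spread may be technical.

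Of 9 markers of a HER2-amplified luminal line 8 passed the filter, with ERBB2, KRT8, KRT19 and EPCAM detected on all 20 arrays and CDH1 on 0. Of 14 markers of other cell types 5 passed, among them VIM and CD68 on 20 arrays and CDH5 on 19, whereas KRT5, KRT14, COL1A1, ZEB1, PTPRC, CD3E and PECAM1 were detected on 0. Between 12582 and 15177 probes were detected per array on 19 arrays. Replicate 1 of the EGF siERRα cells stood apart, with 12151 detected probes and a correlation of 0.816 to 0.853 with the other arrays across probes, against 0.942 to 0.989 among those 19. The main results that rest on its group are also given without it, from a fit of 19 arrays. ESRRA, which encodes ERRα, fell by 1.47 ± 0.14 on the log2 scale (SE) in siERRα over siC cells on average (adjusted p = 0.000581, limma), and its group means ran from 6.41 to 7.82 in siERRα cells and from 8.67 to 9.15 in siC cells. By setting, its change was -2.61 in resistant, -1.33 in parental, -1.28 in EGF, -1.14 in starved and -0.99 in HRG cells. ESRRA was also lower in resistant than in parental siERRα cells (-1.41, adjusted p = 0.0232, limma). Values averaged over the siRNAs in that experiment therefore include unlike ESRRA levels.

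Levels are log2 of background-corrected, quantile-normalized intensity, in which a step of 1 is a doubling. Differences come from limma, fitted to all 15444 detected probes, with Benjamini-Hochberg adjustment over them, and the threshold for a call was an adjusted p of 0.05. A gene with several detected probes was counted by its brightest. The comparison with starved cells asked which genes responded to the ligands of EGFR and HER3.

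The promoters of BCL6, CCNG2, KLHL24 and PIK3IP1 are shown because these 4 genes were the ones called lower with both growth factors, as described below. Each line gives the last 100 bases before the transcription start in RefSeq (GRCh38.p14), 5′ to 3′ on the strand of the gene, with matches to the searched motifs in capitals. The regions are chr3:183635523-183635622 (plus strand) for KLHL24, chr4:77157107-77157206 (plus) for CCNG2, chr3:187745469-187745568 (minus) for BCL6 and chr22:31292535-31292634 (minus) for PIK3IP1.
KLHL24: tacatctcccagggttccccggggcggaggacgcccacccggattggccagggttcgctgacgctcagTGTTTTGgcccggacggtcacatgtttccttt
CCNG2: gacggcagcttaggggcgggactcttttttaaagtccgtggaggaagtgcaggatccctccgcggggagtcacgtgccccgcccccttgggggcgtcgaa
BCL6: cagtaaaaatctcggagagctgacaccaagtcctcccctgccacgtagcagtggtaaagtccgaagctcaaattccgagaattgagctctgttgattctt
PIK3IP1: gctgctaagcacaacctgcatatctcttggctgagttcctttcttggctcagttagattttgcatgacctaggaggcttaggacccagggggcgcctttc
The searched motifs were the FOXO site GTAAACA, the insulin response element core CAAAACA and the ERR site AAGGTCA, on both strands, in 250 bases before to 50 after each start. All 9 genes had an entry, with 14 starts in all. In KLHL24 the capitals mark CAAAACA on the other strand, beginning 32 bases before the start, and IRS2 held the same motif 40 bases before its start. The FOXO site was found at 1 of the 14 starts, a second start of PIK3IP1, on the other strand and 17 bases after it (chr22:31292454-31292483, minus).
PIK3IP1, second start: taaagagaggcTGTTTACcagaacagcata
The ERR site was found at 0 of the 14. Of all 35116 promoters in the table, 3.42% held GTAAACA, 4.92% CAAAACA and 3.92% AAGGTCA. These are descriptions of the letters in this window only.

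In siC cells BCL6, CCNG2 and KLHL24 fell 2.69-fold to 3.07-fold with EGF, and BCL6 and KLHL24 fell 2.85-fold and 2.64-fold with HRG, while FOXO1 and FOXO3 mRNA did not pass the test with either ligand. Averaged over siERRα and siC cells, BCL6, CCNG2, KLHL24 and PIK3IP1 were all called lower, with EGF and with HRG.

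BCL6 encodes a zinc finger repressor of transcription whose gene FOXO factors induce in lymphoid cells. Its raw intensities ran from 202 to 519 and all 20 arrays detected it. In siERRα cells its log2 level was 8.28 and 7.06 with EGF, 7.15 and 6.88 with HRG, and 8.35 and 8.51 in starved cells. In siC cells it was 7.19 and 7.09 with EGF, 6.99 and 7.12 with HRG, and 8.47 and 8.66 in starved cells. All treated arrays lay below all starved arrays, and the one at 8.28, close to the starved cells, was the EGF siERRα array that stands apart. In siC cells BCL6 was 2.69-fold lower with EGF (log2 fold change -1.43 ± 0.30, SE, adjusted p = 0.0196) and 2.85-fold lower with HRG (-1.51 ± 0.30, adjusted p = 0.0224). Averaged over both siRNAs the changes were -1.09 ± 0.21 for EGF (adjusted p = 0.005) and -1.47 ± 0.21 for HRG (adjusted p = 0.00115). The EGF value was -1.40 on the 19 arrays (adjusted p = 2.95e-05). In siERRα cells alone the EGF value was -0.76 (adjusted p = 0.104), against -1.37 on the 19 arrays (adjusted p = 0.00386).

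CCNG2 encodes cyclin G2, an unconventional cyclin linked to cell cycle arrest and a direct FOXO target. Its brightest probe read 5.89 and 5.28 with EGF, 6.25 and 6.17 with HRG, and 8.20 and 7.77 in starved cells, all with siERRα. With siC it read 6.37 and 5.92 with EGF, 6.77 and 5.52 with HRG, and 7.93 and 7.60 in starved cells. No treated array reached a starved one, and 3 treated arrays, both EGF siERRα arrays and the lower HRG siC array, were below detection. In siC cells the change was -1.62 ± 0.39 with EGF (adjusted p = 0.0364) and also -1.62 ± 0.39 with HRG, where the adjusted p of 0.0509 missed the threshold and that on 19 arrays, 0.0212, passed it. It was at least 3.81-fold lower with EGF in siERRα cells, where the treated arrays give only a bound set by the lowest detected signal of each array (adjusted p = 0.00368). Averaged over both siRNAs the changes were -2.01 ± 0.27 for EGF (adjusted p = 0.000434) and -1.70 ± 0.27 for HRG (adjusted p = 0.00236), and on 19 arrays the EGF value was -2.16 (adjusted p = 0.000328). Of the other 2 probes, the one that passed the filter was dimmer and detected on 11 arrays, among them all 4 starved arrays, 1 of 4 with EGF and 0 of 4 with HRG. It gave bounds of at least 1.15-fold lower with EGF in siERRα cells (adjusted p = 0.0777), and with HRG at least 1.45-fold lower in siERRα cells (adjusted p = 0.26) and 1.32-fold lower in siC cells (adjusted p = 0.335), and none of these was called. On average over both siRNAs this dimmer probe was called lower with EGF (-1.02 ± 0.30, adjusted p = 0.0442). With HRG (-1.08 ± 0.30, adjusted p = 0.0508) it missed the threshold. The EGF call was lost without EGF siERRα replicate 1 (-1.01), EGF siC replicate 2 or any 1 starved array. The HRG change was called without EGF siERRα replicate 1 or HRG siC replicate 2. With so few treated arrays detected, the sizes of these changes are uncertain. Across the 10 group means the 2 probes correlated at 0.778.

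KLHL24 encodes a Kelch-like adaptor of a cullin ubiquitin ligase. It read 6.60 and 5.65 with EGF, 5.73 and 5.48 with HRG, and 7.93 and 7.51 in starved cells, with siERRα. In siC cells the levels were 6.09 and 6.37 with EGF, 6.27 and 6.42 with HRG, and 7.69 and 7.80 in starved cells. Treated and starved arrays did not overlap, and the 2 lowest treated arrays, at 5.65 and 5.48, were below detection. KLHL24 fell 2.85-fold with EGF (-1.51 ± 0.27, adjusted p = 0.00785) and 2.64-fold with HRG (-1.40 ± 0.27, adjusted p = 0.0194) in siC cells, and over both siRNAs by 2.94-fold with EGF (adjusted p = 0.000219) and 3.37-fold with HRG (adjusted p = 0.000135). On 19 arrays the average EGF value was -1.79 (adjusted p = 6.86e-06).

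PIK3IP1 encodes a membrane protein that binds the catalytic subunit of PI3K and inhibits it. With siERRα it read 7.71 and 7.01 with EGF, 7.73 and 7.20 with HRG, and 8.44 and 8.70 in starved cells. With siC it read 7.51 and 7.67 with EGF, 7.89 and 7.91 with HRG, and 8.42 and 8.26 in starved cells. The arrays did not overlap here either, but the gap was narrow in siC cells, where the changes of -0.75 ± 0.24 with EGF (95% interval -1.27 to -0.23, adjusted p = 0.133) and -0.44 ± 0.24 with HRG (-0.96 to 0.08, adjusted p = 0.522) were not called. Without the EGF siERRα array that stands apart, the EGF change in siC cells was called (adjusted p = 0.0272). Averaged over both siRNAs it fell 1.97-fold with EGF (adjusted p = 0.00253) and 1.71-fold with HRG (adjusted p = 0.0168), and the EGF value on 19 arrays was -1.15 (adjusted p = 0.000284). The HRG call was lost on leaving out starved siC replicate 1, starved siERRα replicate 2, HRG siC replicate 1 or HRG siERRα replicate 2 (adjusted p of 0.0599 to 0.0714). The HRG response in siERRα cells was -1.10 ± 0.24 (adjusted p = 0.0396), and its difference from that in siC cells, -0.66 (95% interval -1.40 to 0.08), was not called (adjusted p = 1).

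**Figure D1:**
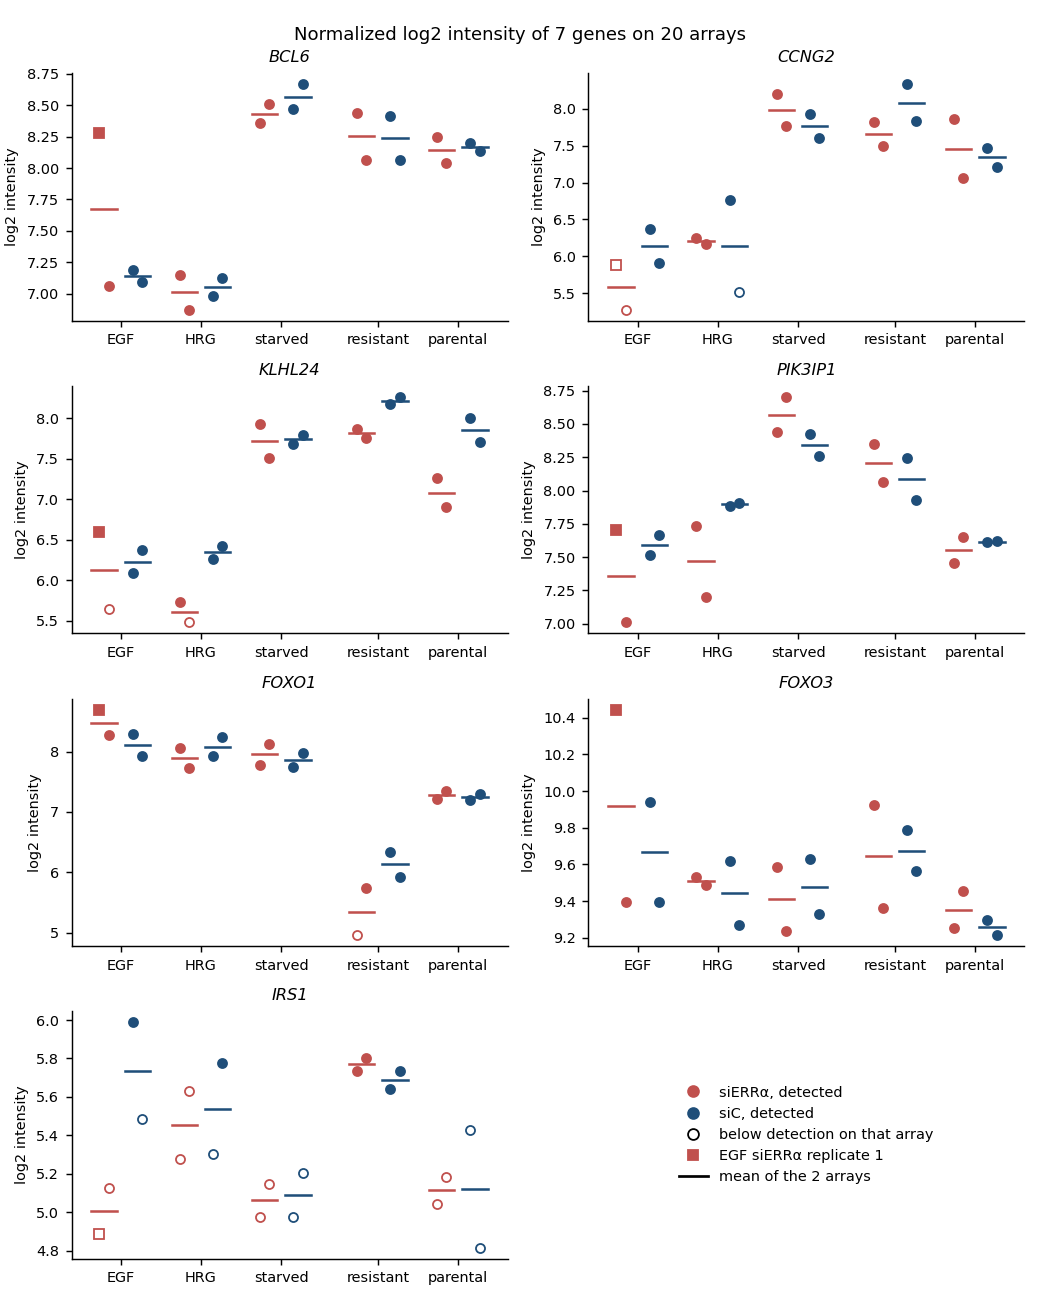
Log2 intensity (vertical axis) of the brightest detected probe of each gene on every array, with siERRα (red) left of siC (blue) in each of 5 settings and a bar at the mean of the 2 arrays. BCL6, CCNG2, KLHL24 and PIK3IP1 sit lower on EGF and HRG arrays than on starved arrays, and FOXO1 is lowest in resistant cells, where 1 array was below detection (open symbol).

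FOXO1 and FOXO3 themselves are regulated mostly at the protein level. FOXO1 read 8.29 and 7.92 with EGF, 7.93 and 8.23 with HRG, and 7.74 and 7.97 in starved siC cells, with overlapping arrays. The changes were 0.25 (95% interval -0.33 to 0.83, adjusted p = 0.797) and 0.23 (-0.35 to 0.81, adjusted p = 0.875). The brightest FOXO3 probe read 9.94 and 9.39 with EGF, 9.62 and 9.27 with HRG, and 9.63 and 9.33 in starved siC cells. Its changes of 0.19 (-0.49 to 0.86, adjusted p = 0.901) and -0.04 (-0.71 to 0.64, adjusted p = 0.992) were not called, nor were those of the second FOXO3 probe, 0.33 (adjusted p = 0.678) and -0.16 (adjusted p = 0.929). On average over both siRNAs the brightest FOXO3 probe stood at 0.35 (-0.13 to 0.83, adjusted p = 0.304) with EGF, and of the left-out arrays only 1 gave a call, namely EGF siERRα replicate 2, whose absence left that group with the array that stands apart (0.61, adjusted p = 0.0139). Without that array it stood at 0.09 (adjusted p = 0.802), and FOXO1 at 0.28 (adjusted p = 0.39). Over the 10 group means, with the array that stands apart included, the 2 FOXO3 probes correlated at 0.176. On that array the brightest probe read 10.44 and the second 7.08, against 9.40 and 7.72 on EGF siERRα replicate 2. The correlation without the array that stands apart was not computed, so the 0.176 is no measure of disagreement between the probes elsewhere. The other 2 FOXO3 probes were detected on 0 arrays.

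IRS1, the adaptor of the insulin and IGF receptors, was dim and detected on 6 arrays. In siC cells it read 5.99 and 5.48 with EGF, 5.30 and 5.77 with HRG, and 4.97 and 5.20 in starved cells, where neither array detected it. The difference was 0.65 ± 0.25 with EGF (95% interval 0.12 to 1.18, adjusted p = 0.214) and 0.45 ± 0.25 with HRG (adjusted p = 0.521). In siERRα cells the EGF arrays, at 4.89 and 5.13, overlapped the starved ones at 4.97 and 5.15. The HRG siERRα arrays, at 5.28 and 5.63, lay above those starved ones, though neither detected it. Averaged over both siRNAs the HRG difference was 0.42 (95% interval 0.05 to 0.80, adjusted p = 0.191), which was not called.

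In siC cells, 3 of the 7 genes were called lower with EGF, where 1.06% of all probes were called lower, and 2 of 7 with HRG, where 0.589% were. No member was called higher. The median change of the 7 genes was -0.75 with EGF and -0.44 with HRG, beside -0.06 and -0.05 over all 9592 genes. Without the array that stands apart the counts were 4 of 7 (3.61% of probes lower) and 3 of 7 (2.12%). With only the 12 arrays of the growth factor experiment 0 were called with EGF and 0 with HRG, and likewise 0 and 0 by the methods' t-test after adjustment. Leaving out 1 of the compared siC arrays left 0 genes called, except for KLHL24 with EGF without EGF siC replicate 2, and CCNG2 with HRG without HRG siC replicate 1. Averaged over both siRNAs, which uses 4 arrays against 4, 4 of 7 genes were called lower with EGF (5.15% of probes) and 4 of 7 with HRG (2.69%), and without the array that stands apart again 4 of 7 with each (6.48% and 7.17%). The 2 comparisons share the starved arrays. Directly set against EGF in siC cells, HRG gave 0 called members and 0% of all probes in limma, with 0 members and 475 probes at an unadjusted p under 0.05 and 0 members by the methods' t-test. The differences were -0.09 for BCL6 (95% interval -0.74 to 0.56), 0.00 for CCNG2 (-0.83 to 0.83), 0.12 for KLHL24 (-0.47 to 0.70) and 0.30 for PIK3IP1 (-0.22 to 0.83). The summed intensity of the 14 markers of other cell types was 1292 to 1532 in EGF siC and 1282 to 1502 in HRG siC cells, against 872 to 971 in starved siC cells, and 1257 to 1831 in EGF siERRα and 1304 to 1612 in HRG siERRα cells, against 888 to 892 in starved siERRα cells. The endothelial cadherin CDH5, 1 of the 5 that passed the filter, rose with each ligand in siC cells (2.44 with EGF and 2.46 with HRG on the log2 scale), and the part of this in the members' changes was not tested. In bulk RNA, fewer cells that express a gene and less RNA per cell cannot be told apart.

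**Figure D2:**
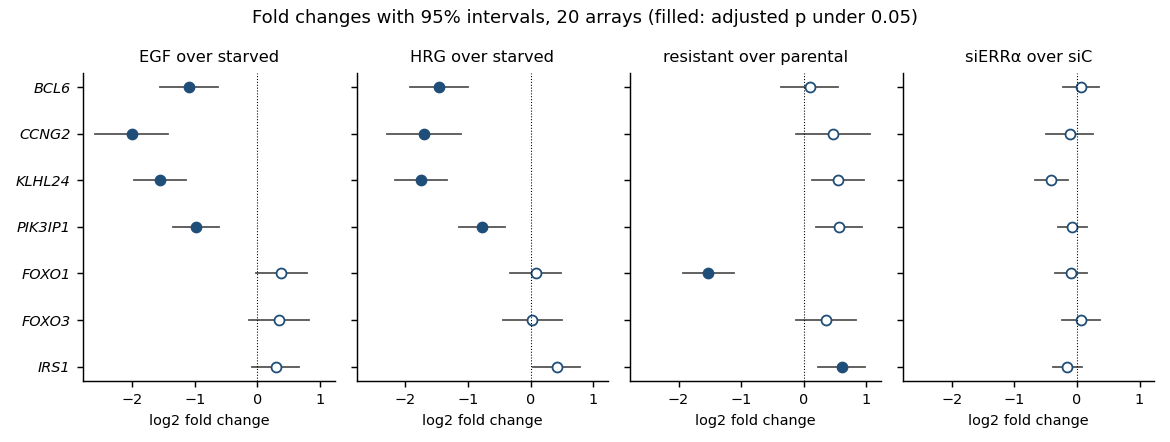
Log2 fold change (horizontal axis, with its 95% interval) of each gene in 4 comparisons on 20 arrays, the first 3 averaged over siERRα and siC cells and the last over the 5 settings. Filled circles mark adjusted p under 0.05. The 4 genes at the top lie below 0 with both ligands, and FOXO1 lies at -1.52 in resistant over parental cells. IRS1 is filled in that panel too, but it passed the filter only through the resistant groups, so its circle there is a description.

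Of other textbook FOXO targets some rose and some fell. Of 32 such genes 23 were measured, and averaged over both siRNAs 4 were called higher and 3 lower with EGF, and 3 higher and 4 lower with HRG. Over all probes 6.59% were called higher and 5.15% lower with EGF, and 3.7% higher and 2.69% lower with HRG. On 19 arrays these counts were 4 and 4 with EGF and 3 and 6 with HRG, where 7.32% and 7.94% of all probes were called higher. Their median change was 0.03 with EGF and -0.18 with HRG, beside -0.03 and -0.04 over all genes. TXNIP, an inhibitor of thioredoxin that restrains glucose uptake, had the largest change of the list, -1.95 ± 0.20 for EGF (adjusted p = 4.63e-05) and -2.14 ± 0.20 for HRG (adjusted p = 3.75e-05). ERBB3, the receptor for HRG, fell by 1.19 with EGF (adjusted p = 0.00434) and by 0.85 with HRG (adjusted p = 0.0429). TSC22D3, a leucine zipper protein induced by glucocorticoids, fell by 0.85 with EGF (adjusted p = 0.0119) and by 1.06 with HRG (adjusted p = 0.00528). The pseudokinase gene TRIB1 rose by 1.72 with EGF and 1.11 with HRG, and the zinc finger factor KLF6 by 1.62 and 0.90. All 5 of these genes were also called with both ligands on 19 arrays, where the EGF values were -1.92 for TXNIP, -0.87 for ERBB3, -1.10 for TSC22D3, 1.38 for TRIB1 and 1.45 for KLF6. GADD45A, a gene of DNA damage and stress, rose by 1.34 with HRG (adjusted p = 0.0105) and stood at 0.87 with EGF (adjusted p = 0.0574), which passed on 19 arrays (0.97, adjusted p = 0.0465). FOXO4, the further FOXO gene measured, fell by 0.76 ± 0.16 with HRG (adjusted p = 0.0126). It stood at -0.44 with EGF (adjusted p = 0.0913), and at -0.61 without the array that stands apart (adjusted p = 0.0106).

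**Figure D3:**
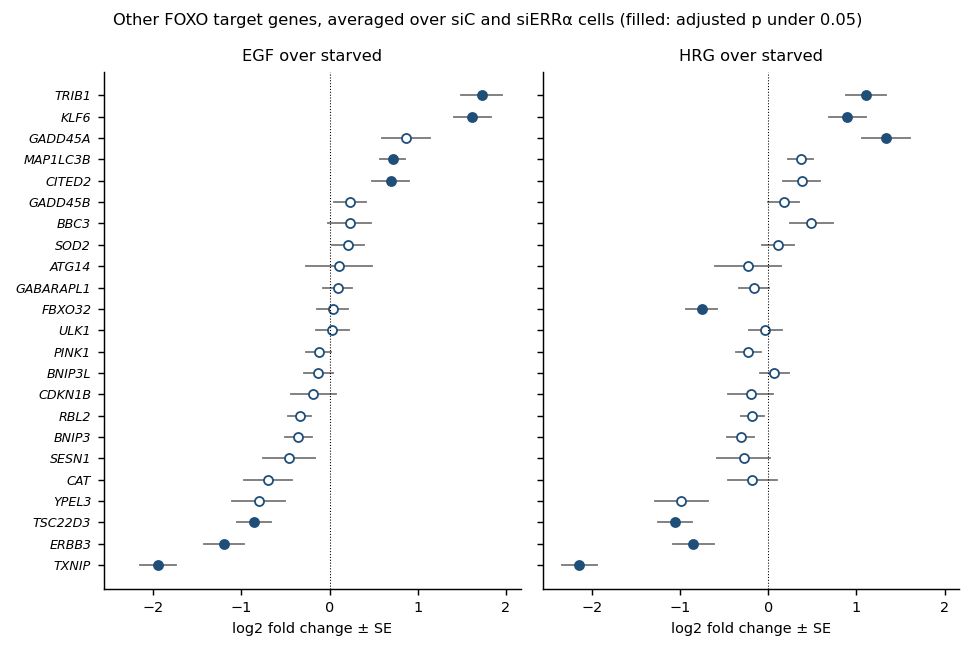
Log2 fold change ± SE (horizontal axis) of the 23 measured genes of a list of other FOXO targets, for EGF over starved (left) and HRG over starved (right), averaged over siERRα and siC cells. Filled circles mark adjusted p under 0.05. TXNIP lies lowest in both panels, at -1.95 and -2.14, and TRIB1 and KLF6 lie above 0 in both.

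Genes that act above FOXO in the pathway were counted in the same way. The shares of all probes beside these counts were again 6.59% higher and 5.15% lower with EGF, and 3.7% higher and 2.69% lower with HRG. Of 22 measured PI3K, AKT and mTOR components, 4 rose and 1 fell with EGF, and 1 rose and 0 fell with HRG. Without the array that stands apart, 3 rose and 4 fell with EGF, and 3 rose and 1 fell with HRG. The 1 of 22 lower with EGF and the 1 of 22 higher with HRG lie near the shares of all probes (5.15% and 3.7%). Those are shares on 20 arrays. On 19 arrays the shares were 7.32% higher and 6.48% lower with EGF, and 7.94% higher and 7.17% lower with HRG. PIK3CD, a catalytic subunit of PI3K, rose by 1.64, the AKT-related kinase SGK1 by 1.28 and GSK3B, a kinase that AKT inhibits, by 0.97 with EGF, while PIK3CB, another catalytic subunit, fell by 0.91. On 19 arrays these EGF values were 1.20 for PIK3CD, 1.15 for SGK1, 0.82 for GSK3B and -0.65 for PIK3CB, all called. GSK3B also rose with HRG, by 0.74. SGK1 was detected on 7 of the 20 arrays and PIK3CD on 10, against 20 for GSK3B. The sizes of the SGK1 and PIK3CD rises are therefore uncertain, and which groups let them past the filter was not examined. Of 12 insulin and IGF receptors, adaptors and binding proteins, 5 rose and 0 fell with EGF, and 3 rose and 0 fell with HRG, against 4 and 0 and 3 and 0 on 19 arrays. GAB2, a docking protein that binds PI3K, rose by 0.90 for EGF (adjusted p = 0.00688) and 0.97 for HRG (adjusted p = 0.0071), IGFBP3, which sequesters IGFs, by 1.52 and 1.43, and the insulin receptor phosphatase PTPN1 by 0.48 and 0.58. On 19 arrays the EGF values were 0.94 for GAB2 and 0.65 for PTPN1, and that of IGFBP3 was no longer called (1.06, adjusted p = 0.0557). GRB10, an adaptor that restrains the insulin receptor, rose by 1.05 and IGFBP2, detected on 10 of the 20 arrays, by 1.04 with EGF. On 19 arrays the values were 1.12 for GRB10 and 0.69 for IGFBP2 (adjusted p = 0.0498). Of 14 regulators of FOXO proteins, 2 rose and 1 fell with EGF and 1 rose with HRG, and on 19 arrays 2 rose and 1 fell with EGF and 3 rose and 1 fell with HRG. SFN, a 14-3-3 protein, rose by 2.52 ± 0.37 for EGF (adjusted p = 0.000793) and 1.52 ± 0.37 for HRG (adjusted p = 0.027). STK4, a kinase that phosphorylates FOXO proteins, rose by 0.80 and SKP2, a ubiquitin ligase subunit that targets FOXO1, fell by 0.49 with EGF. On 19 arrays the EGF values were 1.93 for SFN, 0.68 for STK4 and -0.65 for SKP2, and the counts of 1 of 14 lie near the shares of all probes.

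The resistance experiment asked how cells that grow in lapatinib differ from the parental line. Here FOXO1 mRNA was the member that changed most, and it fell. It read 4.96 and 5.73 in resistant siERRα cells, against 7.21 and 7.35 in parental siERRα cells, and 6.34 and 5.93 in resistant siC cells, against 7.20 and 7.30 in parental siC cells. All 4 resistant arrays lay below all 4 parental arrays, and the lowest, at 4.96, was below detection. FOXO1 was 2.17-fold lower in siC cells (-1.12 ± 0.27, adjusted p = 0.0424) and 3.81-fold lower in siERRα cells (-1.93 ± 0.27, adjusted p = 0.00164), and 2.88-fold lower on average (-1.52 ± 0.19, adjusted p = 0.000227). The siERRα and average values include the array at 4.96, whose lowest detected signal was 5.61, so their sizes are uncertain. Over the 10 groups, FOXO1 averaged 5.35 ± 0.54 in resistant siERRα and 6.13 ± 0.29 in resistant siC cells (SD, n = 2 each), then 7.25 ± 0.07 in parental siC and 7.28 ± 0.10 in parental siERRα cells, and the 6 groups of the growth factor experiment followed, with means of 7.86 to 8.48, in which neighbouring groups overlapped. The difference between the siRNAs in this response, -0.81 (95% interval -1.64 to 0.01), was not called (adjusted p = 1). It was 1 of 7 members called lower in siC cells, where 1.55% of probes were lower (4.1% without the array that stands apart), and this call was lost on leaving out any 1 of the 4 siC arrays (adjusted p of 0.1 to 0.351). On average over the siRNAs it was the 1 member called lower, where 4.69% of probes were (9.92% without that array), and its adjusted p was at most 0.0224 in the alternatives for which it was computed.

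FOXO1 lies on chromosome 13, and the values of its nearest 10 measured neighbours in resistant over parental cells were all below 0. The nearest on one side, MRPS31, a mitochondrial ribosome protein gene, fell by 0.78 on average (adjusted p = 0.000939), and PROSER1, the fourth measured gene on the other side, by 1.02 (adjusted p = 0.00591). The other 8 of the nearest 10 measured genes had values from -0.78 to -0.23 and were not called. Over all 160 measured genes of chromosome 13, a list taken after the values of FOXO1 were seen, 56 were called lower and 3 higher, and the median was -0.51, beside 0.01 over all genes. IRS2 lies on the same chromosome but was not detected.

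**Figure D4:**
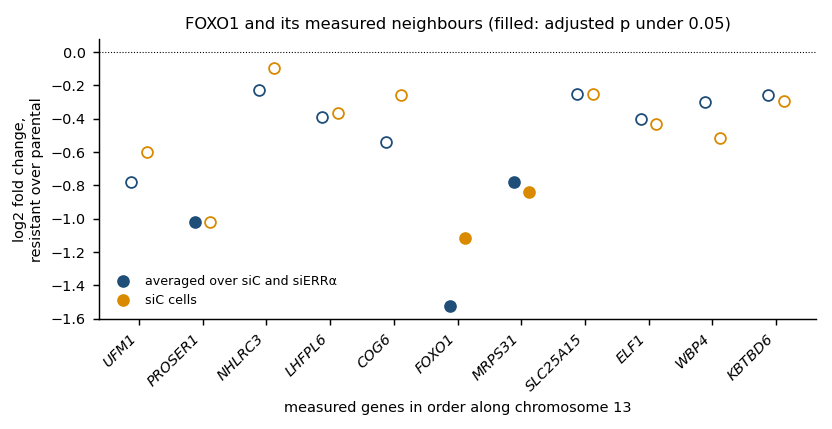
Log2 fold change in resistant over parental cells (vertical axis) of FOXO1 and the 5 nearest measured genes on each side in order along chromosome 13, averaged over siERRα and siC cells (blue) and in siC cells (orange). Filled circles mark adjusted p under 0.05. All 11 genes lie below 0, and FOXO1 lies lowest.

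Of the 4 genes that fell with growth factors, 0 were called in resistant cells on 20 arrays and 2, PIK3IP1 and KLHL24, were called higher on 19. PIK3IP1 read 8.35 and 8.06 in resistant siERRα cells, against 7.45 and 7.65 in parental siERRα cells, and 8.24 and 7.93 in resistant siC cells, against 7.61 and 7.62 in parental siC cells. The arrays did not overlap, and the average difference of 0.56 ± 0.17 (95% interval 0.19 to 0.93) missed the threshold on 20 arrays (adjusted p = 0.0588) and passed it on 19 (adjusted p = 0.011). KLHL24 read 7.87 and 7.76 in resistant siERRα cells, against 7.26 and 6.90 in parental siERRα cells, and 8.17 and 8.26 in resistant siC cells, against 7.997 and 7.71 in parental siC cells. Within each siRNA the resistant arrays were the higher ones. Its average difference of 0.55 ± 0.19 likewise had an adjusted p of 0.103 on 20 arrays and 0.0115 on 19. The differences of CCNG2, 0.47 (-0.12 to 1.05), and BCL6, 0.09 (-0.37 to 0.55), were not called on either set.

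IRS1 passed the filter only through the resistant groups, where it was high, so its difference there is a description and no test is drawn from it. It read 5.74 and 5.80 in resistant siERRα cells, against 5.04 and 5.18 in parental siERRα cells, and 5.64 and 5.73 in resistant siC cells, against 5.43 and 4.82 in parental siC cells. All 4 resistant arrays detected it and none of the 4 parental arrays did. In siERRα cells it was at least 1.18-fold higher by the bound, and in siC cells the bound gave no fold. Of the other 6 measured genes 0 were called higher in resistant cells, where 4.45% of probes were called higher, and 2 on 19 arrays, KLHL24 and PIK3IP1, where 9.1% of probes were. FOXO3 stood at 0.36 (95% interval -0.12 to 0.83, adjusted p = 0.415). Among the other FOXO targets 3 of 23 were called higher and 0 lower. These were GABARAPL1, an autophagy gene (0.90 ± 0.17, adjusted p = 0.00365), the mitochondrial superoxide dismutase SOD2 (0.76, adjusted p = 0.0189) and the ubiquitin ligase subunit FBXO32 (0.63, adjusted p = 0.0379). The mTOR inhibitor DDIT4 fell by 0.75. Of 22 measured PI3K, AKT and mTOR components it was the 1 called lower, near the 4.69% of all probes called lower, and 0 were called higher. GAB2 rose by 0.76, and IGFBP5, an IGF binding protein, fell by 1.50 ± 0.16 (adjusted p = 7.66e-05). Of the 12 insulin and IGF genes GAB2 was the 1 called higher and IGFBP5 the 1 called lower, while on 19 arrays 3 were higher and 4 lower. The luminal HER2 markers summed to 49812 to 50242 in resistant siC cells, against 56066 to 60488 in parental siC cells, and GATA3, 1 of the 8 measured, was called lower on average. All 8 had average values below 0, with a median of -0.33, beside 0.01 over all genes. The markers of other cell types summed to 902 to 1041 in resistant siC cells, against 801 to 925 in parental siC cells, and CDH5 (1.41, adjusted p = 0.012) and VWF (1.36, adjusted p = 0.00884) rose on average. The part of these markers in the members' differences was not tested.

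Parental cells, grown in serum, had group means of 7.34 for CCNG2, 7.62 for PIK3IP1 and 8.16 for BCL6 with siC, against 7.76, 8.34 and 8.57 in starved siC cells. FOXO1 averaged 7.25 in parental siC cells, against 7.86 in starved siC cells. In limma 0 of the 7 members were called (0.537% of probes were), 2 passed at an unadjusted p under 0.05, FOXO1 and PIK3IP1, and 0 by the methods' t-test after adjustment. In this comparison the experiment and the medium cannot be told apart. The largest member difference was that of PIK3IP1, -0.72 (95% interval -1.25 to -0.20, adjusted p = 0.331).

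Depletion of ERRα left 0 members called. On average over the 5 settings limma called 0.013% of probes, 2 in all, 1 member, KLHL24, passed at an unadjusted p under 0.05, and 0 did by the methods' t-test. The differences of the 7 genes ran from -0.41 to 0.07. KLHL24 had the largest, -0.41 ± 0.12 (95% interval -0.67 to -0.15, adjusted p = 0.49). It read 5.73 and 5.48 in HRG siERRα cells, against 6.27 and 6.42 in HRG siC cells, and 7.26 and 6.90 in parental siERRα cells, against 7.997 and 7.71 in parental siC cells. With EGF the arrays overlapped, at 6.60 and 5.65 with siERRα against 6.09 and 6.37 with siC, and those of starved cells overlapped too. In resistant cells KLHL24 read 7.87 and 7.76 with siERRα, against 8.17 and 8.26 with siC. The average KLHL24 value was -0.50 without EGF siERRα replicate 1 and -0.31 without EGF siERRα replicate 2. The second of these leaves that group with only the array that stands apart, so no call is read from it. FOXO1 in resistant cells, at 4.96 and 5.73 with siERRα against 6.34 and 5.93 with siC, differed by -0.78 (-1.37 to -0.20), which was not called (adjusted p = 1). For the other 6 members the interval of the average included 0, and the widest was that of CCNG2, from -0.49 to 0.25.

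Over the 10 group means, CCNG2 and KLHL24 correlated at 0.921, BCL6 and KLHL24 at 0.893, and CCNG2 and BCL6 at 0.861, while PIK3IP1 correlated with CCNG2 at 0.741. FOXO1 followed none of them (-0.65 to -0.33), and the 10 means come from 2 experiments on arrays normalized together, so these are descriptions. The span of the group means was 3.13 for FOXO1, 2.61 for KLHL24, 2.50 for CCNG2, 1.55 for BCL6, 1.21 for PIK3IP1, 0.76 for IRS1 and 0.66 for FOXO3. Among 4346 or 4347 other genes whose group means spanned at least 1 log2 unit, the 2 most like each member were RNF146 and WEE1 for CCNG2 (0.979 and 0.976), HCAR1 and MIS12 for BCL6 (0.978 and 0.968), NUDT7 and FRAT2 for KLHL24 (0.960 and 0.958) and RASSF2 and ANKRA2 for PIK3IP1 (0.934 and 0.928). VEZF1 and EEF1A2 were closest to FOXO1 (0.978 and 0.977), B3GNT3 and TBC1D24 to FOXO3 (0.960 and 0.954), and PPP3CC and SH3D19 to IRS1 (0.920 and 0.911). All these group means include the array that stands apart, which read 10.44 for FOXO3, against 9.40 in its replicate. The spans, correlations and likenesses were not computed without that array.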

How the data were processed

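The deposited table held probe intensities and detection p-values of 20 one-colour arrays, which per the labels were not normalized, and 0 columns of other samples. A second deposited table held values that the authors normalized with the lumi function of FlexArray, which look like log2 values (medians of 7.55 to 7.57). The transformation is not given in the sources used here, and that table served as an alternative only. With limma 3.58.1 in R 4.3.3, intensities were background-corrected by normexp (offset 16, background inferred from the detection p-values), quantile normalized and taken to log2. A probe was kept when its detection p-value was under 0.01 on both arrays of at least 1 group, and the number of arrays limits the precision. Groups came from the labels. A model of 10 group means, with no replicate block, was fitted to 15444 probes with empirical Bayes moderation, and p-values were two-sided. The procedure was tested on simulated data. Symbols came from the platform annotation, in which 30113 probes had 1 symbol, 8 several and 17202 none. Of these, 30074 were matched to the RefSeq gene table. Lists were of FOXO family genes, other FOXO targets, PI3K, AKT and mTOR components, insulin and IGF genes, FOXO regulators and cell type markers, and of each up to 4 called genes with the largest change in a comparison, and any called with both ligands, were named. The 2 genes most like each member were chosen by Pearson's r over group means spanning at least 1 log2 unit. The members and lists were chosen with earlier results of these data known. Alternatives were other background corrections, normalizations, filters, moderation, array weights, a replicate block, arrays of 1 experiment, the methods' t-test and leaving out each array. Promoter sequences came from RefSeq's table for GRCh38.p14, with no other genome sequence.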

Additional observations from a re-analysis of the deposited data

How the results depend on the processing

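Of the 7 measured genes, 3 were called with EGF and 2 with HRG in siC cells, 4 with each ligand on average over the siRNAs, 1 in resistant siC cells, 2 in resistant cells on average (FOXO1, and IRS1, which passed the filter only through those cells), and 0 for HRG over EGF, parental over starved and siERRα over siC. Where IRS1 is among the genes counted in resistant cells on average, its call is a description and no test. With only the arrays of the same experiment, 0 were called with EGF and 0 with HRG in siC cells, and 4 in resistant cells on average. With array weights, in which both EGF siERRα arrays weighed 0.0918 against 1.12 to 1.67 for the others, 1 was called with EGF on average and 4 in resistant cells on average. With only probes detected on all 20 arrays, from which CCNG2, KLHL24, FOXO1 and IRS1 were absent, 1 was called with each ligand in siC cells, 2 with each on average, 0 in resistant siC cells and 1 in resistant cells on average. After adjustment the methods' t-test called 0 with each ligand in siC cells, 2 with EGF on average and 0 in resistant siC cells, and unadjusted it called 4 in resistant cells on average and 2 for parental over starved. In resistant siC cells 0 were called without background correction, in the authors' table or without a filter. In resistant cells on average 1 was called without a filter or with robust and trended moderation, and 4 with cyclic loess or without EGF siERRα replicate 1. Leaving out each array in turn gave 0 to 4 genes with EGF and 0 to 3 with HRG in siC cells, 4 to 5 and 3 to 4 on average, 0 to 1 in resistant siC cells, 1 to 4 in resistant cells on average, 0 to 0 for HRG over EGF and for parental over starved, and 0 to 1 for siERRα over siC. The cause was not tested. For single members, 780 of the values under other settings kept their direction and side of the threshold, 26 lost and 22 gained a call and 0 turned round, and on leaving out arrays the numbers were 590, 40, 9 and 0. Over the alternatives with adjusted p-values, the probes called ran from 0 to 1392 with EGF in siC cells (522 as reported), 0 to 849 with HRG in siC cells (297), 230 to 7360 with EGF on average (1812), 353 to 2334 with HRG on average (988), 4 to 1827 in resistant siC cells (459), 850 to 3315 in resistant cells on average (1412), 0 to 2 for HRG over EGF (0), 0 to 377 for parental over starved (83) and 1 to 3919 for siERRα over siC (2). The counts of 7360 and 3919 came from leaving out EGF siERRα replicate 2, which leaves that group with replicate 1 alone, assumed to vary like the other groups. Same-numbered arrays deviated together weakly (19 of 45 pairs over 0.1, median 0.087), so the numbers were not taken as pairs over the whole series, though in 10 of 10 groups the mean correlation with the same number was above 0. Among the 5 growth factor groups other than EGF siERRα all 10 pairs were over 0.1 (0.113 to 0.254), a hint of pairing from the data there. With the replicate block 3 genes were called with EGF and 3 with HRG in siC cells, CCNG2 being the one gained with HRG (adjusted p = 0.00434), 4 and 4 on average, 1 in resistant siC cells, 2 in resistant cells on average and 0 in the other comparisons.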
